A study of Mus musculus with 6 samples.

Results

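The data described here cover branched chain amino acid catabolism in the mitochondria, taken as 10 genes listed by name (*Bcat2*, *Bckdha*, *Bckdhb*, *Dbt*, *Dld*, *Ivd*, *Mccc1*, *Mccc2*, *Acadsb* and *Hibadh*) of 46517 genes in the count files. All 10 passed the filter on low counts that left 14967 genes for testing. Leucine, isoleucine and valine are first deaminated by a transaminase, and the resulting branched chain ketoacids are then oxidatively decarboxylated by the branched chain ketoacid dehydrogenase, a complex of a decarboxylase (E1), a transacylase (E2) and a dihydrolipoamide dehydrogenase (E3). The acyl-CoA products follow separate arms, of which leucine ends in acetyl-CoA and ketone bodies, valine in propionyl-CoA, and isoleucine in both acetyl-CoA and propionyl-CoA. Adipocytes degrade these amino acids and use their carbon for lipid synthesis, and the genes of the pathway are known to be less expressed in the fat of obese animals.

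RNA was sequenced from inguinal white adipose tissue (IngWAT), a subcutaneous fat depot, of C57Bl6 mice aged 5 to 9 months that were kept in standard housing and fed chow. Controls were mice with a floxed *Hdac3* gene, which encodes the histone deacetylase HDAC3. H3atKO mice carried the floxed gene together with an Adipoq-Cre transgene, whose adiponectin promoter drives recombination in adipocytes, so that other cells of the depot keep the gene. Each group had 3 samples, and each sample was a pool of RNA from 2 or 3 mice, with 500 ng of total RNA pooled, so p-values measure the spread between pools. *Hdac3* had 68.9, 80.3 and 65.8 cpm (counts scaled to a common library total, with TMM factors) in floxed replicates 1, 2 and 3 and 27.4, 21.1 and 12.9 cpm in H3atKO replicates 1, 2 and 3, with a log2 fold change of -1.83 ± 0.32 (SE; limma adjusted p = 0.0213). All 3 H3atKO samples lay below all floxed samples, although with 1 sample fewer the call held only without floxed replicate 3 (adjusted p = 0.00828 in limma), at log2 fold changes of -2.11 to -1.56 over the 6 such fits.

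The libraries held 23865507 to 35200685 counts on genes, at which 3 counts correspond to 0.0658 to 0.190 cpm. The genotypes differed in more than *Hdac3*. Mitochondrially encoded genes took 6.92 to 12.9% of the counts in floxed and 26.9 to 35.3% in H3atKO samples, and the correlation across genes between a sample's deviation from the gene mean and GC content (the share of G and C in a gene's longest transcript) ran from 0.0969 to 0.800 in floxed and from -0.711 to -0.433 in H3atKO samples (Spearman's rho, genes not being independent). Because this relation separates the groups, genotype and GC content of the measurement cannot be told apart, and each fold change of the 10 genes is therefore given also after a GC correction. Adipocyte markers (6 genes, *Adipoq* among them) summed to 13362 to 27694 cpm in floxed and 15334 to 26482 cpm in H3atKO samples. Most of this sum was *Fabp4* (10340 to 22051 cpm over all samples). None of the 6 passed the limma test, *Adipoq* was at 1266 to 2876 cpm in every sample, and *Retn* was lower in every H3atKO than in every floxed sample (log2 fold change -1.57, limma adjusted p = 0.0629). *Lep*, *Cidec* and *Plin1* overlapped between the groups, with log2 fold changes of -2.36, -1.49 and -1.22. Skeletal muscle markers (6 genes), which matter here because muscle also degrades branched chain amino acids, summed to 484 to 2733 cpm in floxed and 2.09 to 3328 cpm in H3atKO samples. Endothelial markers (3 genes) summed to 304 to 643 cpm in floxed and 119 to 178 cpm in H3atKO samples. Of the 3 genes 2 fell in limma, beside 7.07% of all tested genes. The part of these cells in the results was not tested, and in bulk tissue fewer cells of a type and less RNA per cell cannot be told apart.

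Changes between the genotypes were unequal among the 10 genes, as they were over all tested genes. *Dld*, encoding the E3 subunit, rose 7.20-fold, and *Hibadh*, encoding an enzyme of the valine arm, rose 2.66-fold (ratios of the mean cpm). These were 2 of the 10 genes at an adjusted p under 0.05 in limma, beside 16.5% of all tested genes called (9.42% rose and 7.07% fell). None of the 10 genes fell (0 at this threshold, with 3 lower at an unadjusted p under 0.05). By edgeR and by DESeq2, *Acadsb* was also called higher, and *Bcat2* and *Bckdha* lower, beside 12.8% and 18.4% of all genes higher and lower in edgeR and 19.6% and 23.2% in DESeq2. The log2 fold changes of the 10 genes were positive in 5 and negative in 5, with a median of 0.02 and quartiles of -0.67 and 0.82, against a median of -0.09 and quartiles of -1.22 and 0.78 over all tested genes.

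Same-numbered pools of the genotypes deviated together (r = 0.510, 0.389 and 0.264 across genes for numbers 1, 2 and 3). The correlation with GC content also fell with the number in both genotypes. It was 0.800, 0.623 and 0.0969 in floxed and -0.433, -0.504 and -0.711 in H3atKO replicates 1, 2 and 3. Whether the number stands for more than this relation was not tested. A fit with the replicate number as a block called 3 of the 10 genes higher (*Dld*, *Acadsb* and *Hibadh*) and 3 lower (*Bcat2*, *Bckdha* and *Ivd*), beside 24.8% higher and 28.7% lower of all genes. After the GC correction 1 of the 10, *Dld*, stayed called higher and 0 lower, beside 5.55% and 3.06% of all genes. With block and GC correction together *Dld* was called higher and *Bckdha* and *Mccc1* lower, beside 13.1% and 9.71%. *Dld* was thus the gene called in each of these 4 fits. When TMM factors were replaced by library sizes, the median of all tested genes moved from -0.09 to -0.94 and that of the 10 genes from 0.02 to -0.82, and 1 of the 10 (*Dld*) was called higher and 5 lower (*Bcat2*, *Bckdha*, *Ivd*, *Mccc1* and *Mccc2*), beside 2.04% and 37.9% of all genes.

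*Dld* and *Hibadh*, and no other of the 10, were called under 4 further settings. These were RLE factors (10.8% of all genes higher and 7.32% lower), no mitochondrial genes (8.93% and 6.94%), no filter on low counts (4.32% and 5.25%) and at least 10 counts in every sample (12.6% and 15%). With 1 sample fewer, calls depended on which sample was left out. *Dld* alone of the 10 was called higher, with 0 lower, without floxed replicate 1 (1.01% of all genes higher and 0.611% lower), H3atKO replicate 1 (1.34% higher), H3atKO replicate 2 (2.64%) or H3atKO replicate 3 (0.584%). None was called without floxed replicate 2 (0.00673% of all genes higher). Without floxed replicate 3 *Dld* and *Hibadh* were called higher and *Bcat2*, *Bckdha* and *Ivd* lower (18.5% and 25.9%).

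In cpm, every H3atKO sample lay above every floxed sample for 3 of the 10 genes (*Dld*, *Acadsb* and *Hibadh*; 23.1% of all genes) and below for 2 (*Bcat2* and *Bckdha*; 28.6% of all genes), and the groups overlapped for the other 5.

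**Figure D1:**
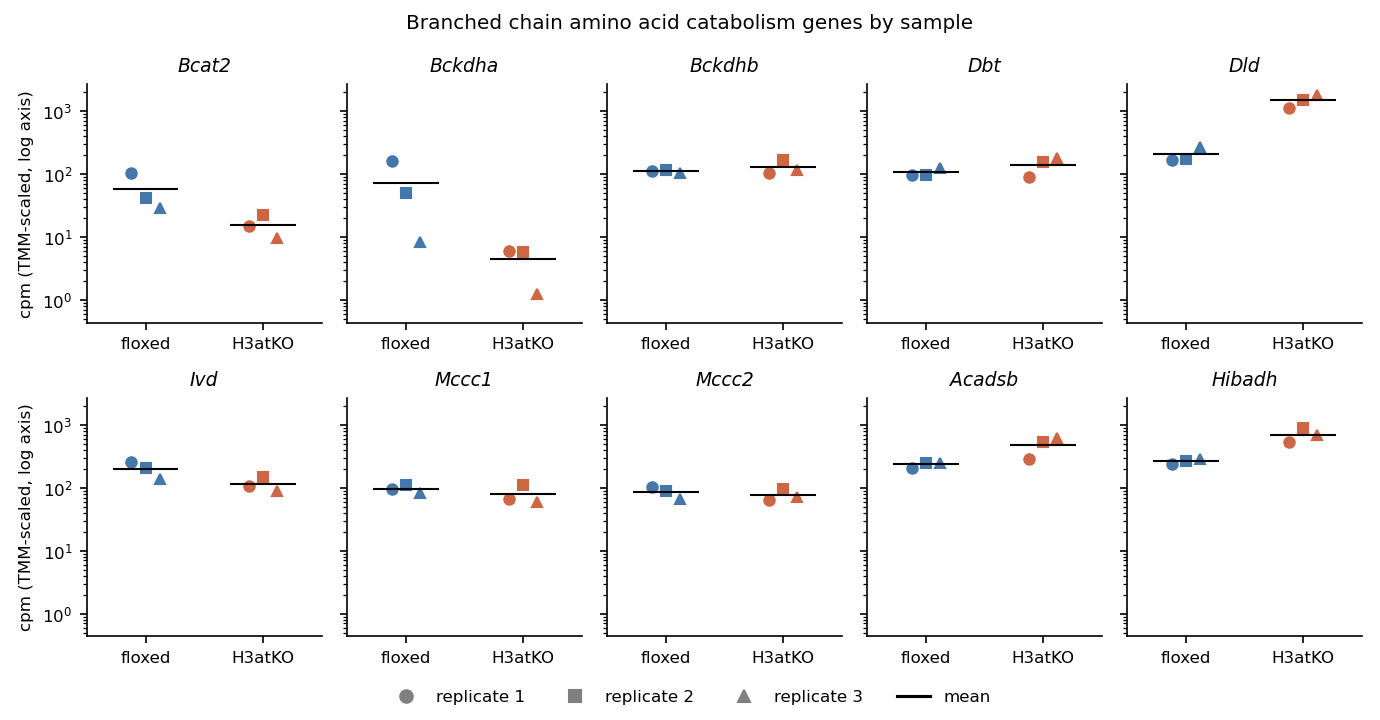
Levels in cpm, scaled by TMM factors and drawn on a log axis, of each of the 10 genes in the 3 floxed and 3 H3atKO samples. Symbols mark replicates and lines the group means. *Dld* stands between 170.3 and 276 cpm in floxed and 1144 and 1798 cpm in H3atKO samples, and *Bckdha* spans 8.46 to 162 cpm within the floxed group alone.

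*Dld* (ENSMUSG00000020664, chr12:31331277-31351453, minus strand, GRCm38) encodes dihydrolipoamide dehydrogenase, which reoxidises the lipoyl arm of the branched chain ketoacid dehydrogenase and serves the same role in the pyruvate and 2-oxoglutarate dehydrogenases and in the glycine cleavage system. It had the largest rise of the 10 genes. *Hibadh* (ENSMUSG00000029776, chr6:52546228-52640389, minus strand) encodes 3-hydroxyisobutyrate dehydrogenase, the valine arm enzyme that consumes 3-hydroxyisobutyrate. *Bckdha* (ENSMUSG00000060376, chr7:25629946-25658981, minus strand) encodes the alpha subunit of the E1 decarboxylase, the committed step of the pathway. The windows around the starts of these 3 genes, 250 bases before to 50 after, are shown because they belong to both genes that rose and to the gene with the lowest level in H3atKO samples. They are from RefSeq (GRCm38.p6), read 5′ to 3′ on the gene's strand. Capitals mark matches, on either strand, to the NRF1 motif (GCGCA, any base, then GCGC) and to the CCAAT box (CCAAT), and the windows are, in order, chr12:31351422-31351721, chr6:52640251-52640550 and chr7:25658712-25659011, all on the minus strand.
Dld: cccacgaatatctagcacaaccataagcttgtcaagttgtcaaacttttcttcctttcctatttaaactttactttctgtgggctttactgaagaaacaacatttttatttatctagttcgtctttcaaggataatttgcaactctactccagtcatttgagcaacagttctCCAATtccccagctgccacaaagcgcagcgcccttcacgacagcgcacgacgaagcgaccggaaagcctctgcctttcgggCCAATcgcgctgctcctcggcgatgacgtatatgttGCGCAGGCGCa
Hibadh: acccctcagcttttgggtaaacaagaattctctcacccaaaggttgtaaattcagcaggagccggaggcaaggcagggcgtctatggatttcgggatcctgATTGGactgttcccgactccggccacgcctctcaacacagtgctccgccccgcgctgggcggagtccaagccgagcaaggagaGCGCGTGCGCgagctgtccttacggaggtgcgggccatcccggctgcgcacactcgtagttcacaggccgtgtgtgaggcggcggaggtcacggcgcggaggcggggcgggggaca
Bckdha: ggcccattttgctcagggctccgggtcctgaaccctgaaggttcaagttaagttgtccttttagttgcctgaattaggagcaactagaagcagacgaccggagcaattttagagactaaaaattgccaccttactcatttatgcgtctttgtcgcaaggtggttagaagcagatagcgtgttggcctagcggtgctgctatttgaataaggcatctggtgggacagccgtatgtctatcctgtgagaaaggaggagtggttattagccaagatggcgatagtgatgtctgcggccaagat

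Among the 10 genes, 9 had a window in the RefSeq table (*Dbt* did not), with 11 windows between them. Counts of genes below take a match in any window of a gene, while the shares over all windows take each window alone. The NRF1 motif, that of a factor which binds promoters of many genes of mitochondrial proteins, was found in *Dld* (position 40 from the start) and *Hibadh* (position -66), which makes 2 of the 9 genes, whereas 4.6% of all 32851 windows hold it. The CCAAT box was found in 6 of the 9 genes and in 37.4% of all windows. Neither TCAAGGTCA, the letters bound by estrogen-related receptors (0.423% of all windows), nor the direct repeat of AGGTCA with 1 base between the copies, which is bound by PPARγ with its partner (0.0396%), was found in any of the 9. Motifs do not overlap each other in the windows shown. The 4 motifs were chosen after the windows and the expression values had been seen, and a match is a description of letters. The *Hibadh* window had 64% GC, that of *Dld* 47% and that of *Bckdha* 48%.

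The transaminase step was measured by *Bcat2* (ENSMUSG00000030826, chr7:45570153-45589711, plus strand), the mitochondrial branched chain aminotransferase that starts the pathway in adipose tissue. Its levels were 103, 41.9 and 28.8 cpm in floxed replicates 1, 2 and 3 and 14.9, 22.7 and 9.55 cpm in the H3atKO replicates. All H3atKO samples lay below all floxed samples, but floxed replicate 1 stood well above the other floxed samples. The means were 58.0 ± 39.8 and 15.7 ± 6.61 cpm (SD, n = 3 per group). The log2 fold change of -1.74 ± 0.59 (SE) did not pass the limma test (adjusted p = 0.0698). It passed in edgeR (adjusted p = 0.0386) and with the replicate block in limma (-1.81, adjusted p = 0.0125), as well as without floxed replicate 3 in limma (-2.13, adjusted p = 0.0161). The GC content of *Bcat2* is 54.3%, and after the GC correction the log2 fold change was -0.61 (limma adjusted p = 0.294). Exons of *Bcat2* overlap those of a gene on the other strand, *0610005C13Rik*.

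The E1 alpha subunit, *Bckdha*, had the widest spread of the 10. It had 7369, 2112 and 348 counts in floxed replicates 1, 2 and 3 and 148, 116 and 20 counts in the H3atKO replicates. These correspond to 162, 50.8 and 8.46 cpm and to 6.10, 5.91 and 1.26 cpm. The highest floxed sample was 19.1 times the lowest one, and floxed replicate 3 lay closer to H3atKO replicate 1 than to the other floxed samples. The 6 samples ranked for *Bckdha* as they ranked for their correlation with GC content, which held for 9.66% of all tested genes, and the transcript has a GC content of 57.9%, the highest of the 10. The means were 73.7 ± 79.2 and 4.42 ± 2.74 cpm (SD, n = 3 per group), 16.7-fold lower in H3atKO, and the SD of the floxed samples exceeded the difference. The fit gave a log2 fold change of -3.46 ± 1.43 (SE; limma adjusted p = 0.106). With the replicate block it was -3.85 (limma adjusted p = 0.00301), with the GC correction -1.56 (0.269) and with both -1.79 (0.0204). All H3atKO samples lay below all floxed samples, so the H3atKO sample would be the lower one in any pairing. Without floxed replicate 3 the log2 fold change was -4.58 (limma adjusted p = 0.00755), and without floxed replicate 1 it was -2.47 (0.148). Exons of *Bckdha* overlap those of *B3gnt8* on the other strand.

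*Bckdhb* (ENSMUSG00000032263, chr9:83925145-84124240, plus strand) encodes the beta subunit that pairs with BCKDHA in the E1 decarboxylase. It was among the most even members, at 113, 117 and 106 cpm in floxed and 107, 171 and 119 cpm in H3atKO replicates. The groups overlapped, and the log2 fold change was 0.21 ± 0.25 (SE; limma adjusted p = 0.530), and 0.49 after the GC correction (limma adjusted p = 0.175). The ratio of *Bckdhb* to *Bckdha* counts within a sample, which does not depend on library scaling, was 0.698, 2.31 and 12.5 in floxed and 17.5, 28.9 and 94.2 in H3atKO replicates. On the log2 scale its mean was 1.44 ± 2.09 in floxed and 5.18 ± 1.25 in H3atKO samples (SD, n = 3 per group). The groups did not overlap and differed by 3.73, which reaches the smallest value that 3 against 3 samples allow (two-sided exact permutation p = 0.1). After the GC correction the difference was 2.08 and the groups overlapped (exact permutation p = 0.2).

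**Figure D2:**
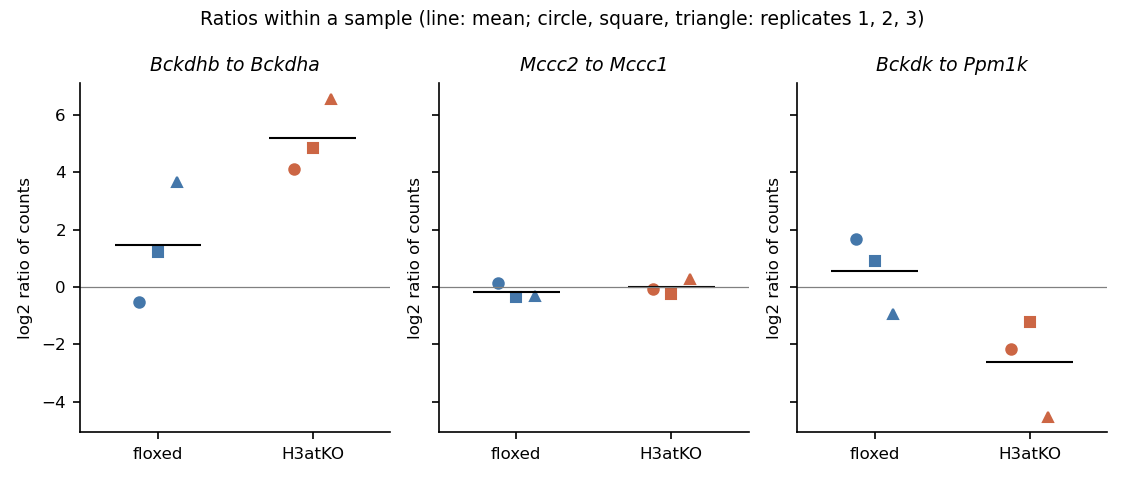
Log2 ratios of counts within each sample for *Bckdhb* to *Bckdha*, *Mccc2* to *Mccc1* and *Bckdk* to *Ppm1k*, with lines at the group means and symbols for replicates 1, 2 and 3. *Bckdhb* to *Bckdha* runs from -0.52 to 3.64 in floxed and 4.13 to 6.56 in H3atKO samples, *Mccc2* to *Mccc1* overlaps between the groups, and *Bckdk* to *Ppm1k* is above -0.94 in every floxed and below -1.20 in every H3atKO sample.

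The E2 transacylase is encoded by *Dbt* (ENSMUSG00000000340, chr3:116513070-116549981, plus strand). Its levels were 98.0, 96.9 and 128 cpm in floxed and 89.0, 154 and 184 cpm in H3atKO replicates, so the lowest H3atKO sample lay below every floxed sample. The log2 fold change was 0.35 ± 0.32 (SE; limma adjusted p = 0.413), and -0.53 after the GC correction (limma adjusted p = 0.180), a turn of sign in a gene with a GC content of 42.1%.

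For the E3 subunit, *Dld* had 7759, 7295 and 11360 counts in floxed and 27768, 30086 and 28444 counts in H3atKO replicates. These correspond to 170.3, 175 and 276 cpm and to 1144, 1534 and 1798 cpm. The lowest H3atKO sample was far above the highest floxed sample. The means were 207 ± 59.6 and 1492 ± 329 cpm (SD, n = 3 per group). The log2 fold change of 2.86 ± 0.30 (SE; limma adjusted p = 0.00800) exceeded that of 98.1% of all tested genes. It was 2.85 in edgeR (adjusted p = 0.0118) and 2.91 in DESeq2 (adjusted p = 6.36e-13). The 6 samples ranked for *Dld* in the opposite order to their correlation with GC content (6.46% of all tested genes did). Its own GC content is 40.6%, at which the median gene was also higher in H3atKO, with a median log2 fold change of 0.84 for genes of 40 to 45% GC. After the GC correction the log2 fold change of *Dld* was 1.86 (limma adjusted p = 0.00909). When single samples were left out, it ranged from 2.72 to 3.09 and kept its call in 5 of 6 fits. The exception was the fit without floxed replicate 2, at 2.76 with an adjusted p of 0.0516 in limma, in which 1 gene of 14860 was called.

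**Figure D3:**
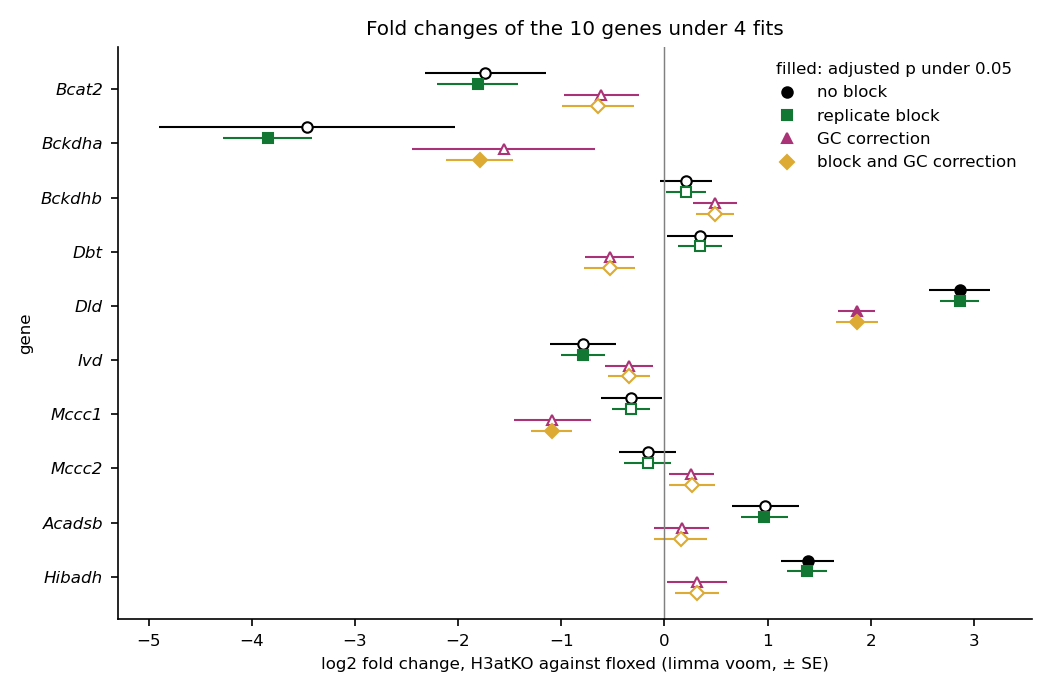
Log2 fold changes (H3atKO against floxed, bars ± SE) of the 10 genes from limma fitted plainly, with the replicate block, after the GC correction, and with both of these. Filled symbols have an adjusted p under 0.05. *Dld* is filled in all 4 fits, at 2.86, 2.86, 1.86 and 1.86. *Hibadh* moves from 1.39 to 0.32 with the GC correction, and *Bckdha* from -3.46 to -1.56.

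In the leucine arm, *Ivd* (ENSMUSG00000027332, chr2:118861954-118882909, plus strand) encodes isovaleryl-CoA dehydrogenase. It stood at 253, 206 and 136 cpm in floxed and 106, 147 and 88.1 cpm in H3atKO replicates. H3atKO replicate 2 exceeded floxed replicate 3, and the log2 fold change of -0.79 ± 0.32 (SE) did not pass the limma test (adjusted p = 0.101). With the replicate block the value was the same and passed (limma adjusted p = 0.0259), as did -1.03 without floxed replicate 3 (0.0290), and with the GC correction it was -0.34 (limma adjusted p = 0.350).

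*Mccc1* (ENSMUSG00000027709, chr3:35959312-36000678, minus strand) and *Mccc2* (ENSMUSG00000021646, chr13:99948530-100015639, minus strand) encode the alpha and beta subunits of methylcrotonyl-CoA carboxylase, the biotin enzyme that follows IVD. *Mccc1* had 95.1, 111 and 81.9 cpm in floxed and 66.7, 111 and 59.7 cpm in H3atKO replicates. *Mccc2* had 104, 88.0 and 65.5 cpm in floxed and 63.1, 94.6 and 72.0 cpm in H3atKO replicates. Both overlapped between the groups, with log2 fold changes of -0.32 ± 0.30 (SE; limma adjusted p = 0.422) and -0.16 ± 0.28 (SE; limma adjusted p = 0.664). The log2 ratio of *Mccc2* to *Mccc1* within a sample was 0.13, -0.34 and -0.32 in floxed and -0.08, -0.23 and 0.27 in H3atKO replicates, a difference of 0.16 within the spread of either group (two-sided exact permutation p = 0.5). The subunits differ in GC content, 43.1% for *Mccc1* and 51.0% for *Mccc2*. After the GC correction they parted, to -1.08 for *Mccc1* (limma adjusted p = 0.112, and 0.0205 with the block) and 0.26 for *Mccc2*, and the difference of their log2 ratio was then 1.36 (exact permutation p = 0.1). Exons of *Mccc1* overlap those of 3 genes on the other strand.

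For isoleucine, *Acadsb* (ENSMUSG00000030861, chr7:131410601-131448944, plus strand) encodes the short and branched chain acyl-CoA dehydrogenase. Its levels were 208, 245 and 252 cpm in floxed and 289, 542 and 621 cpm in H3atKO replicates. Each H3atKO sample lay above each floxed sample, H3atKO replicate 1 by the least, and the 6 samples ranked, as for *Dld*, opposite to their correlation with GC content. The means were 235 ± 23.9 and 484 ± 173 cpm (SD, n = 3 per group). The log2 fold change of 0.98 ± 0.32 (SE; limma adjusted p = 0.0674) passed in edgeR (adjusted p = 0.0481) and with the block in limma (adjusted p = 0.0158). With a GC content of 42.7%, it came to 0.17 after the GC correction (limma adjusted p = 0.691).

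For valine, *Hibadh* stood at 235, 271 and 287 cpm in floxed and at 536, 879.6 and 692 cpm in H3atKO replicates. The floxed samples were close together and all below the H3atKO samples. The means were 264 ± 27.0 and 703 ± 172 cpm (SD, n = 3 per group). The log2 fold change was 1.39 ± 0.26 (SE; limma adjusted p = 0.0243). *Hibadh* has the lowest GC content of the 10, at 39.5%, and genes of 35 to 40% GC had a median log2 fold change of 1.16. After the GC correction its own was 0.32 (limma adjusted p = 0.487), and 0.31 with the block as well (0.322), so the call was lost. It was also lost in 5 of the 6 fits that left out a sample, all but the one without floxed replicate 3 (adjusted p = 0.00986 in limma), with log2 fold changes of 1.16 to 1.55. A small gene, *Gm24355*, overlaps an exon of *Hibadh* on the same strand.

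**Figure D4:**
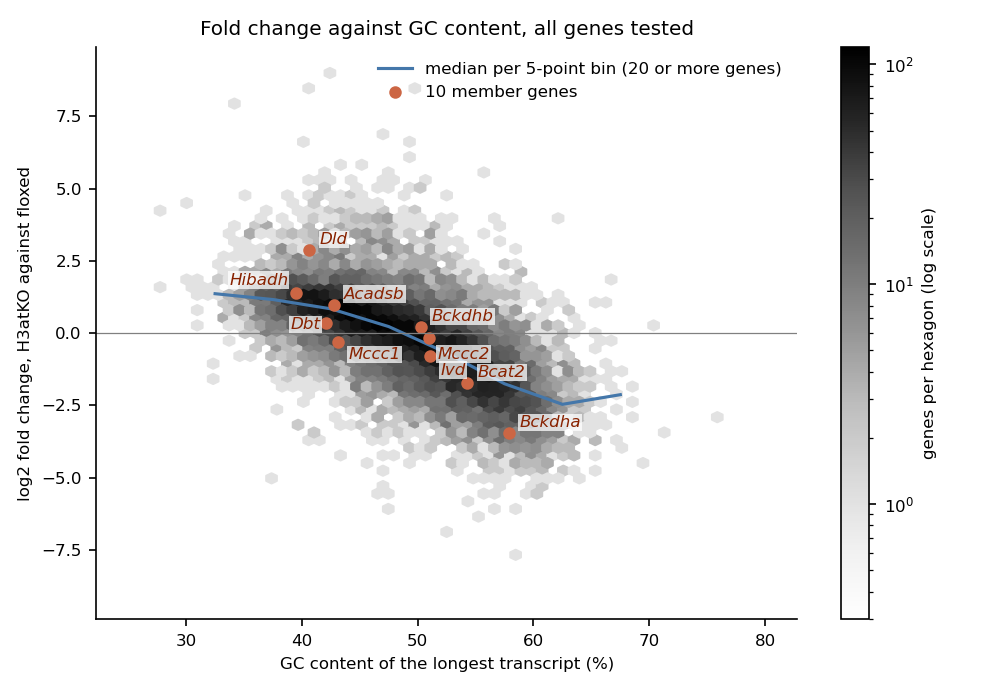
Log2 fold change (H3atKO against floxed) of each tested gene with known GC content (14922 genes) against the GC content of its longest transcript, as hexagons shaded by the number of genes on a log scale, with the median per bin as a line and the 10 genes as labelled points. The median falls from 1.16 at 35 to 40% GC to -2.47 at 60 to 65%. *Hibadh* and *Acadsb* lie close to the line, and *Dld* lies above it.

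Levels can be compared between genes after division by the exon length of each gene (RPKM, here the cpm per kilobase of exon). In floxed samples the order of the mean RPKM was *Bckdhb* at 62.0 ± 3.18, *Dld* at 56.3 ± 16.2, *Bckdha* at 38.8 ± 41.7, *Ivd*, *Acadsb*, *Dbt*, *Mccc2*, *Hibadh*, *Bcat2* at 14.9 ± 10.2 and *Mccc1* at 8.77 ± 1.33 (SD, n = 3). Each of the 9 neighbouring pairs in this order overlapped. In H3atKO samples *Dld* was first at 405 ± 89.4, above and without overlap with *Bckdhb* at 73.2 ± 18.8, which was followed by *Hibadh* at 69.0 ± 16.9, *Acadsb*, *Dbt*, *Mccc2*, *Ivd*, *Mccc1*, *Bcat2* at 4.03 ± 1.69 and *Bckdha* at 2.33 ± 1.44 (SD, n = 3). Of the 9 neighbouring pairs 7 overlapped, and the other gap was between *Ivd* and *Mccc1*. Among the subunits of the dehydrogenase, *Dld* and *Bckdha* had overlapping ranges in floxed samples and stood at opposite ends of the order in H3atKO samples. In both genotypes the ranks also depend on the exon length that is used, since by longest transcript *Bckdha* is 6th rather than 3rd in floxed samples, and on the GC content of each transcript.

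DLD is shared, so the other subunits of the complexes that use it were examined as a list of 9 genes. In this list 5 rose (*Pdha1*, *Pdhb*, *Dlat*, *Pdhx* and *Dlst*) and 0 fell in limma, beside the 9.42% and 7.07% of all genes, with 1 lower at an unadjusted p under 0.05 (*Amt*, called lower in edgeR and DESeq2). The median log2 fold change was 0.89, against -0.09 over all tested genes. The 4 genes of the pyruvate dehydrogenase complex, which turns pyruvate into acetyl-CoA, all rose. In each of them every H3atKO sample lay above every floxed sample, as in 23.1% of all tested genes. *Dlat*, its E2, had 82.0, 80.7 and 109.9 cpm in floxed and 410.1, 534 and 535 cpm in H3atKO replicates, a log2 fold change of 2.44 ± 0.24 (SE; limma adjusted p = 0.00793). *Pdhx*, the E3 binding protein, had 31.4, 29.2 and 34.2 cpm in floxed and 117, 120.4 and 119 cpm in H3atKO replicates, with a log2 fold change of 1.91 ± 0.21 (SE; limma adjusted p = 0.00870). Those of the E1 genes *Pdhb* and *Pdha1* were 2.03 and 1.66. Without floxed replicate 2 no gene of the list was called (0.00673% of all genes higher), and *Dlat* had 2.36 (limma adjusted p = 0.0516). Of the list, 3 were called higher without floxed replicate 1 (1.01% of all genes) and 4 without H3atKO replicate 1 (1.34%). Another 2 fits called 4 higher without H3atKO replicate 2 (2.64%) and 2 higher without H3atKO replicate 3 (0.584%). Without floxed replicate 3 the same 5 were called higher (18.5% of all genes) and *Amt* lower (25.9%).

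These genes have GC contents of 45.5 to 47.2%, where the median gene had a log2 fold change of 0.22. After the GC correction all 5 called genes of the list stayed called (5.55% of all genes higher), *Dlat* at 2.21 and *Pdha1* at 1.19. *Dlst*, the E2 of 2-oxoglutarate dehydrogenase, rose by 0.89 on the log2 scale and had 0.86 after the GC correction. *Ogdh*, its E1, had a log2 fold change of 0.02 ± 0.47 (SE; limma adjusted p = 0.978). The GC correction brought it to 0.78 (limma adjusted p = 0.146), and it was called higher once the block was added (limma adjusted p = 0.0295). In the glycine cleavage system, *Gldc* had 0.04 (1.04 after the GC correction, limma adjusted p = 0.145), *Gcsh* 0.47 and *Amt* -1.40 (limma adjusted p = 0.0632, and 0.0199 with the block, where it was called lower). Beside *Dld*, the subunits with the largest rises were thus those of pyruvate dehydrogenase and not *Dbt*, *Bckdha* or *Bckdhb*. The differences between these fold changes were not tested.

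The activity of the branched chain ketoacid dehydrogenase is set by phosphorylation of its E1 alpha subunit. *Bckdk*, the inhibitory kinase, had 51.4, 30.4 and 14.4 cpm in floxed and 9.55, 13.3 and 2.91 cpm in H3atKO replicates, a log2 fold change of -1.93 ± 0.70 (SE; limma adjusted p = 0.0811, and 0.00556 with the block). *Ppm1k*, the activating phosphatase, had 15.9, 16.4 and 27.4 cpm in floxed and 42.7, 30.6 and 66.8 cpm in H3atKO replicates, with a log2 fold change of 1.19 ± 0.37 (SE; limma adjusted p = 0.0595, and 0.00493 with the block). Every H3atKO sample lay below every floxed sample for *Bckdk* (28.6% of all tested genes) and above for *Ppm1k* (23.1%). In limma fitted plainly neither gene passed, and both did without floxed replicate 3 (limma adjusted p = 0.0151 and 0.0193). *Bckdk* was also called lower by library sizes alone (limma adjusted p = 0.0178). Over all 6 samples both passed in DESeq2 (adjusted p = 0.0144 for *Bckdk* and 0.0114 for *Ppm1k*), and *Ppm1k* also in edgeR (0.0455). Their log2 ratio (*Bckdk* to *Ppm1k*) was 1.69, 0.89 and -0.93 in floxed and -2.16, -1.21 and -4.52 in H3atKO replicates. It was lower by 3.18 on average in H3atKO, with no overlap (two-sided exact permutation p = 0.1, the smallest possible). After the GC correction the difference of the ratio was -1.33 with overlapping groups (exact permutation p = 0.2). The corrected log2 fold changes were -1.15 for *Bckdk* (limma adjusted p = 0.189) and 0.16 for *Ppm1k* (0.637), and with the block as well *Bckdk* was called lower (-1.13, limma adjusted p = 0.0489). The GC contents of the 2 genes are 52.7% and 39.9%. *Klf15*, a transcription factor that promotes branched chain amino acid degradation, had 18.0, 15.3 and 10.7 cpm in floxed and 8.11, 7.60 and 20.2 cpm in H3atKO replicates, overlapping between the groups (log2 fold change -0.46, limma adjusted p = 0.436, and 0.82 after the GC correction).

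The rest of the pathway was taken as 24 further genes, the dehydrogenase regulators among them. Of these 5 rose (*Hibch*, *Aldh6a1*, *Mmut*, *Mcee* and *Acat1*) and 1 fell (*Bcat1*), beside 9.42% and 7.07% of all genes, with a median log2 fold change of -0.06. With the replicate block 8 were called higher and 8 lower (24.8% and 28.7% of all genes), and after the GC correction 2 higher (*Hibch* and *Mcee*) and 1 lower (*Bcat1*; 5.55% and 3.06% of all genes). These counts changed with the sample left out, as did those over all genes. Without floxed replicate 3, 6 rose and 6 fell (18.5% and 25.9% of all genes). Without any other sample at most 1 rose and 0 fell, beside at most 2.64% and 0.93% of all genes. The genes that rose lie downstream of the dehydrogenase, as do most of the 24. Of the 5, 4 belong to the valine and propionate arms. In the same arms *Acad8*, *Pcca*, *Pccb*, *Mmaa* and *Mmab* were not called in limma fitted plainly. *Pccb* and *Mmab* were called lower without floxed replicate 3 (25.9% of all genes) and by library sizes alone (37.9%). Position along the pathway was not tested.

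In the valine arm, *Hibch*, the hydrolase that frees 3-hydroxyisobutyrate for HIBADH, had 169, 202 and 242 cpm in floxed and 523, 833 and 898 cpm in H3atKO replicates. Its log2 fold change was 1.86 ± 0.29 (SE; limma adjusted p = 0.0170), and 1.45 after the GC correction (limma adjusted p = 0.0178). *Aldh6a1*, the methylmalonate semialdehyde dehydrogenase that follows HIBADH, had 568, 748 and 886 cpm in floxed and 1092, 1881 and 2069.6 cpm in H3atKO replicates, with a log2 fold change of 1.17 ± 0.32 (SE; limma adjusted p = 0.0490) that came to 0.33 once corrected for GC content (0.351). *Acad8*, the isobutyryl-CoA dehydrogenase at the head of the arm, had a log2 fold change of 0.16 ± 0.26 (SE; limma adjusted p = 0.641). The consecutive steps encoded by *Hibch*, *Hibadh* and *Aldh6a1* were thus all called higher, and of these *Hibch* stayed called with the GC correction.

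In the propionate arm, *Mcee*, the methylmalonyl-CoA epimerase, rose by 1.10 (limma adjusted p = 0.0384) and *Mmut*, the mutase that makes succinyl-CoA, by 1.12 (limma adjusted p = 0.0386). The GC contents are 50.2% and 41.9%, and the corrected log2 fold changes were 1.36 for *Mcee* (limma adjusted p = 0.0295) and 0.22 for *Mmut* (0.525). The subunits of propionyl-CoA carboxylase, *Pcca* and *Pccb*, had log2 fold changes of 0.93 and -0.56, neither of which passed (limma adjusted p = 0.0655 and 0.286). *Pcca* was called higher with the block (limma adjusted p = 0.00994), in edgeR (0.0496) and in DESeq2 (0.0181). *Mmab*, which makes the cobalamin cofactor of the mutase, had 15.7 ± 6.09 cpm in floxed and 7.85 ± 3.30 cpm in H3atKO samples (SD, n = 3 per group; limma adjusted p = 0.150, and 0.0440 with the block), and a log2 fold change of 0.069 after the GC correction. *Acat1*, the thiolase shared by the ends of the leucine and isoleucine arms, rose by 0.95 (limma adjusted p = 0.0435), and had 0.49 after the GC correction (0.273). At the end of the leucine arm, *Oxct1*, which activates acetoacetate for use, had a log2 fold change of 0.80 (limma adjusted p = 0.0649, and 0.0192 with the block).

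At the entry of the pathway the log2 fold changes of the 6 transporter genes listed (*Slc7a5*, *Slc3a2*, *Slc7a8*, *Slc43a1*, *Slc43a2* and *Slc25a44*) were all negative, from -1.69 for *Slc7a8* to -0.42 for *Slc25a44*. Those of 7855 of the 14967 tested genes were negative too. None of the 6 passed in limma fitted plainly. *Slc43a1* passed in limma with at least 10 counts in every sample (adjusted p = 0.0373) and without floxed replicate 3 (0.0300). By library sizes alone *Slc3a2*, *Slc7a8*, *Slc43a1* and *Slc25a44* were called lower (37.9% of all genes). With the block 4 of the 6 were called lower in limma (28.7% of all genes), *Slc43a1* (adjusted p = 0.0105), *Slc3a2* (0.0173), *Slc7a5* (0.0263) and *Slc7a8* (0.0497). *Slc43a1* also passed in edgeR (adjusted p = 0.0318) and DESeq2 (0.00643). The GC contents of the 6 are 52.2 to 56.3%, and genes of 50 to 55% and of 55 to 60% GC had median log2 fold changes of -0.69 and -1.75. The sign turned in 4 of the 6 with the GC correction (*Slc7a5*, *Slc3a2*, *Slc43a2* and *Slc25a44*). *Bcat1*, the cytosolic aminotransferase, had a log2 fold change of -2.76 (limma adjusted p = 0.0362), a fall, and of -2.99 after the GC correction. It rests on few reads, with 169, 197 and 195 counts in floxed and 25, 4 and 17 counts in H3atKO replicates. By library size alone no H3atKO sample reached 1 cpm, so *Bcat1* passed the low-count filter only through its floxed samples. Without that filter it was also called lower (limma adjusted p = 0.0318). Its mean level was 4.40 ± 0.594 cpm in floxed and 0.769 ± 0.490 cpm in H3atKO samples (SD, n = 3 per group).

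**Figure D5:**
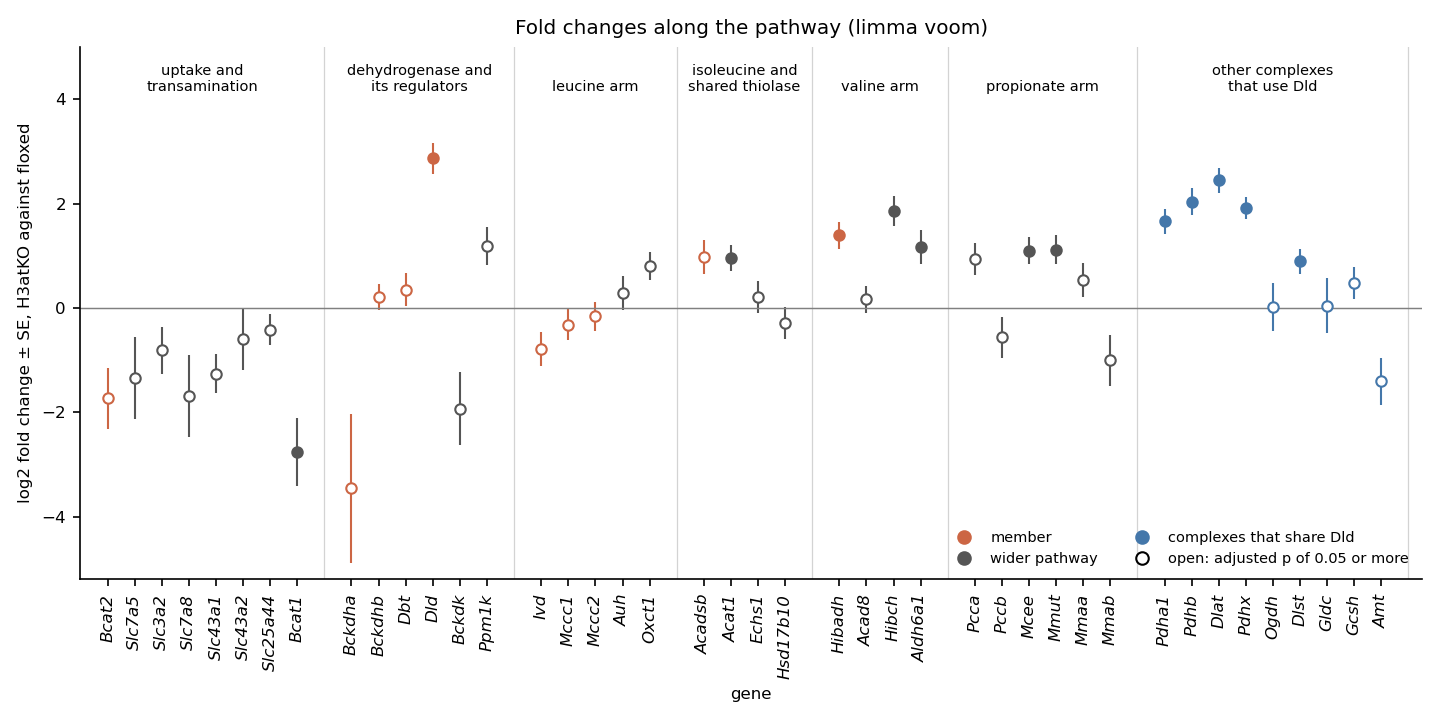
Log2 fold changes (H3atKO against floxed, bars ± SE, limma) of the 10 genes, 23 of the 24 further pathway genes and the 9 genes of other complexes that use DLD, ordered along the pathway. Filled points have an adjusted p under 0.05. Negative values gather at uptake and transamination, and the filled points above 0 are *Dld*, 1 thiolase gene, 3 genes of the valine arm, 2 of the propionate arm and 5 of the complexes that share DLD.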

How the data were processed

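RNA-seq libraries (Illumina TruSeq Stranded mRNA) were made from 3 pools per genotype. The authors aligned reads to GRCm38 and counted them per gene, and the deposited values are raw counts (the submitters' processing notes name cutadapt 1.3, STAR 2.4.2a and HTSeq 0.6.1). Whether counting used strand is not given in the sources used here, so reads of overlapping genes on opposite strands may not be separable. The 5 tally lines of each file were kept apart. GENCODE M21 gave symbols for 46005 of 46517 identifiers.

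Following the study, the 14967 genes that reached 1 cpm in any of the samples were scaled by TMM, transformed by voom and tested with limma 3.58.1 (R 4.3.3), with Benjamini-Hochberg adjustment over all of them and calls at an adjusted p under 0.05. TMM factors were 1.2955 to 1.3746 in floxed and 0.6632 to 0.9209 in H3atKO samples. The 10 genes, the lists and the rule that names every listed gene whatever its values were chosen with earlier results of these data known. Log2 ratios (of counts) were compared by two-sided exact permutation.

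Same-numbered samples of the genotypes had correlated deviations (r = 0.510, 0.389 and 0.264), while the other 6 pairings were negative. Deviations were taken from the genotype mean and so cancel within a genotype, by which the negative values partly follow from the positive ones. The labels do not say what a number stands for. The pairing therefore comes from the data, and a block for the number is given beside results whose call it changes. The GC correction subtracted, per sample, a loess curve (span 0.3) of the deviation from the gene mean on GC content. Other alternatives were edgeR 4.0.16, DESeq2 1.42.0, library sizes, RLE factors, no low-count filter, at least 10 counts in every sample, no mitochondrial genes, and each sample left out. The scripts were tested on simulated data. The values of 1 further pathway gene are not reported here, although list counts include it.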

Additional observations from a re-analysis of the deposited data

How the results depend on the processing

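Main values were 2468 genes called in all (9.42% of all tested genes higher and 7.07% lower). Of the 10 genes 2 were higher and 0 lower (median log2 fold change 0.02), and of the 24 further pathway genes 5 were higher and 1 lower (median -0.06). edgeR called 4665 genes in all (12.8% higher and 18.4% lower), 3 of the 10 higher and 2 lower, and 7 of the 24 higher and 3 lower. DESeq2 called 6400 genes (19.6% and 23.2%), 3 of the 10 higher and 2 lower, and 8 higher and 4 lower of the 24 (median 0.025). The replicate block, for which the pairing is read from the data, gave 8007 genes in all (24.8% and 28.7%). It called 3 of the 10 higher and 3 lower, and 8 higher and 8 lower of the 24. The cause of these differences was not tested.

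Scaling by library sizes alone moved the median of all genes down and gave 5973 calls (2.04% of all genes higher and 37.9% lower). It called 1 higher and 5 lower of the 10 (median -0.82), and 1 higher and 10 lower of the 24 (median -0.91). The sign of the log2 fold change turned for *Bckdhb* (-0.64), *Dbt* (-0.50), *Auh* (-0.56), *Oxct1* (-0.050), *Echs1* (-0.64), *Acad8* (-0.67), *Mmaa* (-0.32), *Ogdh* (-0.83), *Gldc* (-0.79) and *Gcsh* (-0.37). RLE factors and leaving out mitochondrial genes changed no call among the 10, the 24 or the 9 genes of complexes that use DLD. Without a low-count filter the medians were -0.092 for the 10 and 3 of the 24 were higher, and *Ogdh* (-0.070) and *Gldc* (-0.064) turned. With at least 10 counts in every sample, which *Bcat1* did not reach, the medians were -0.090 and 0.050, 2 of the remaining 23 were lower, and *Ogdh* (-0.098) and *Gldc* (-0.061) turned.

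The GC correction left 1288 calls in all (5.55% of all genes higher and 3.06% lower). It called 1 of the 10 higher and 0 lower (median -0.088), and 2 of the 24 higher and 1 lower (median 0.14). With the replicate block added (13.1% and 9.71% of all genes), 1 of the 10 was higher and 2 lower (median -0.092), and 2 of the 24 higher and 2 lower (median 0.15). The sign turned for *Dbt* (-0.53, and -0.53 with the block), *Mccc2* (0.26 and 0.26), *Slc7a5* (0.22 and 0.32), *Slc3a2* (0.13 and 0.12), *Slc43a2* (0.35 and 0.44), *Slc25a44* (0.51 and 0.52), *Hsd17b10* (0.13 and 0.12), *Acad8* (-0.50 and -0.50), *Mmaa* (-0.34 and -0.37), *Mmab* (0.069 and 0.060) and *Klf15* (0.82 and 0.89).

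With single samples left out, 1 to 6557 genes were called in all (1 without floxed replicate 2, 6557 without floxed replicate 3), 0 to 2 of the 10 were higher and 0 to 3 lower (median -0.21 to 0.15), and 0 to 6 of the 24 were higher and 0 to 6 lower (median -0.21 to 0.040). *Bckdhb* ranged from -0.039 to 0.34, *Echs1* from -0.13 to 0.43, *Ogdh* from -0.35 to 0.44 and *Gldc* from -0.45 to 0.32. The 3 ratios kept their direction in all alternatives run, of which the block could not change it, since pairing leaves the mean difference as it is. The difference of *Mccc2* to *Mccc1* was only 0.019 without H3atKO replicate 3. Depth limits *Bcat1* most, at 4 counts in 1 H3atKO sample.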

Other observations

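Markers of other cells of the depot differed in level between pools, and their part in the results was not tested. The 4 brown and beige adipocyte markers summed to 16.6 to 60.3 cpm in floxed and 76.3 to 384 cpm in H3atKO samples. Of these *Dio2*, which encodes the deiodinase that activates thyroid hormone, rose (log2 fold change 5.78, limma adjusted p = 0.0336). *Cidea* did not overlap between the groups and did not pass (1.70, limma adjusted p = 0.0707). *Ucp1* and *Cox7a1* overlapped, with log2 fold changes of 2.33 and -0.28. The 4 macrophage markers summed to 156 to 783 cpm in floxed and 173 to 297 cpm in H3atKO samples, and *Csf1r* among them fell by 2.35 on the log2 scale (limma adjusted p = 0.0219). *Cd68*, *Adgre1* and *Mrc1* overlapped between the groups, with log2 fold changes of -1.60, -0.21 and 0.35. Over all tested genes 9.42% rose and 7.07% fell in limma. The 4 stromal markers summed to 1206 to 4026 and 868 to 1482 cpm, the 4 B cell markers to 3.08 to 90.6 and 2.96 to 345 cpm, and the 4 T cell markers to 3.09 to 30.3 and 8.97 to 99.5 cpm. Of the 4 epithelial markers 2 were tested, and the 4 together summed to 0.481 to 2.83 cpm in floxed and 0 to 4.49 cpm in H3atKO samples. Floxed replicate 3 had the highest stromal and macrophage sums of the 6 samples and the lowest *Bckdha* and *Bcat2* of the floxed samples.

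The 24 further pathway genes and the 9 genes of the complexes that use DLD were also searched for the motifs. Of the 24 genes 19 had a window in the RefSeq table, with the NRF1 motif in 2 (*Pccb* and *Mmaa*, neither called in limma fitted plainly, at log2 fold changes of -0.56 and 0.54) and the CCAAT box in 11. The genes *Hibch*, *Aldh6a1*, *Mcee* and *Bcat1*, which were called, had a window without the NRF1 motif. All 9 genes of the complexes had one, with the NRF1 motif in 0 and the CCAAT box in 6, so *Dld* and the pyruvate dehydrogenase genes that rose with it did not share the NRF1 letters in these windows.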
